A study of Homo sapiens with 12 samples.

Results

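The genes described here are 8 core genes of the TGF-beta pathway, namely the ligands TGFB1 and TGFB2, the receptors TGFBR1 and TGFBR2, and SMAD2, SMAD3, SMAD4 and SMAD7. They were chosen by name from the 11548 genes of the expression table, and all 8 were present in it. The choice was made with the changes of these genes upon drug treatment in the same libraries already known, so the calls given below describe the genes and are no independent evidence of their direction. RNA sequencing was performed on Hep3B, MHCC97H and Huh7 cells, 3 established human hepatocellular carcinoma (HCC) lines labelled as wild type. Each line was left untreated or was treated with AZD8055 (100 nM), compound #57, or AZD8055 plus compound #57. AZD8055 inhibits the mTOR kinase and compound #57 inhibits the phosphatase SHP2. The dose of compound #57 was 5 µM in the combination, and its dose as a single drug was not given in the sources used here. MHCC97H was collected at 24 h and both other lines at 48 h, so the effects of line and of time cannot be told apart. There was 1 library for each cell line and treatment, 12 in all, of 10667343 to 15968317 reads, and no condition was replicated within a line.

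TGF-beta ligands are secreted in a latent form and, once released, bind the type II receptor TGFBR2, which then recruits and phosphorylates the type I receptor TGFBR1. TGFBR1 phosphorylates SMAD2 and SMAD3, which join SMAD4 and enter the nucleus to regulate transcription. SMAD7 is itself a target of the pathway and acts as its inhibitor, by binding the type I receptor and bringing ubiquitin ligases to it. In the liver, the pathway is known for restraining hepatocyte proliferation and for driving fibrosis and, in tumor cells, epithelial-to-mesenchymal transition.

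Upon AZD8055, SMAD3 and SMAD7 rose across the cell lines, by 0.94 and 1.10 on the log2 scale. With the combination, SMAD7, SMAD3, SMAD4, TGFBR1 and TGFB2 rose and TGFB1 fell. Both drugs went with opposite changes of TGFB1 and TGFBR2, which were higher with AZD8055 and lower with compound #57 in all 3 lines. Taken over the lines, none of these changes with a single drug passed the test against untreated cells. SMAD2 passed no test between treatments. TGFB2 was the most variable of the 8 genes, and its changes with each drug ranged widely between the lines, a spread that has no test with 1 library per condition.

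Levels are given as scaled reads, which are reads per gene after each library was brought to 10000000 reads, and a log2-fold change is the difference of log2(scaled reads + 1) between a pair of libraries. Its 95% interval (Clopper-Pearson) rests on the read numbers behind it and covers counting error only. Hepatocyte markers were checked against the label of the lines. All 12 listed markers were in the table, but their summed level was 2329 to 4121 scaled reads in the MHCC97H libraries, against 247798 to 620467 in Hep3B and 341191 to 518475 in Huh7. TTR, COL1A2 and PDGFRB were each at 0 in at least 1 MHCC97H library, while the liver transcription factors HNF4A and FOXA2 were present in all lines. Of the markers of other cells, 1 of 6 immune, 1 of 5 endothelial and 2 of 7 stellate or fibroblast genes were in the table. PECAM1, the endothelial one, stood at 285 to 541 scaled reads in MHCC97H, 5.72 to 17.3 in Hep3B and at most 55.7 in Huh7. LYZ, the immune one, stood at 0.768 to 4.91, 31.6 to 1139.9 and 523 to 7512, and the sum of both stellate genes at 0 to 4.91, 65.3 to 469 and 802 to 1344, in the same order of lines. The part of these differences between lines in the results was not tested.

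**Figure D1:**
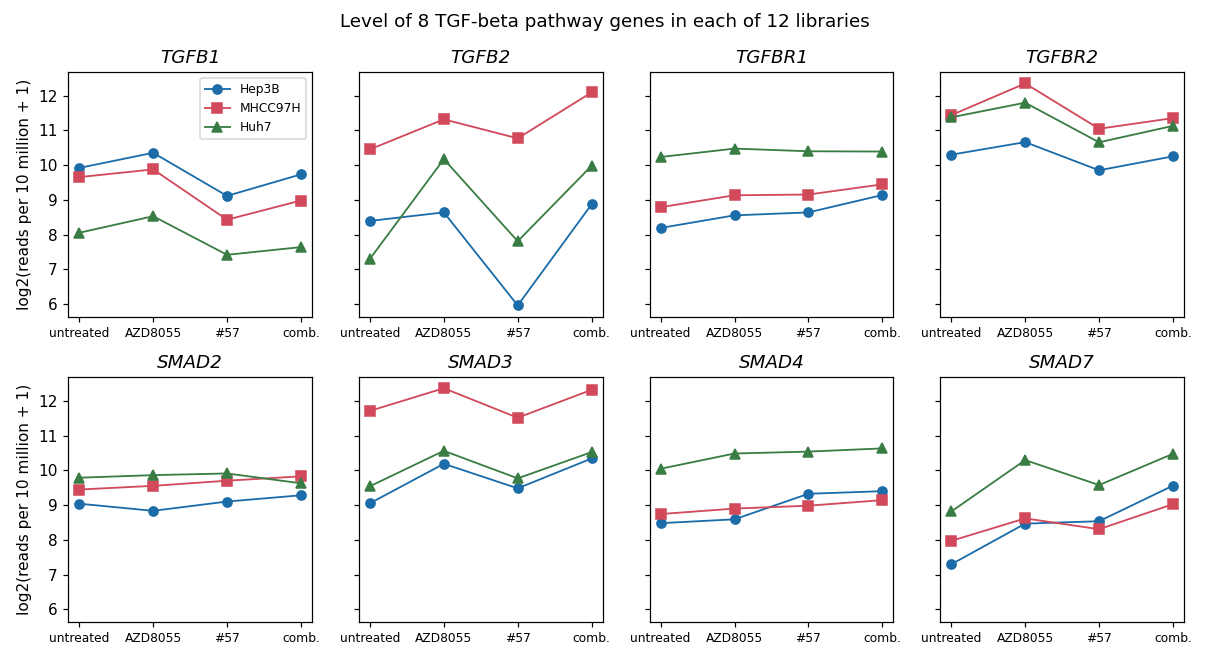
Level of each of the 8 genes as log2(scaled reads + 1) (vertical axis) in untreated cells and with AZD8055, compound #57 (#57) and the combination (comb.). Each point is 1 library and each line connects the libraries of 1 cell line; TGFB2 spans the widest range, from 5.97 to 12.09, and SMAD7 has its lowest point in untreated cells and its highest with the combination in every line.

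The ligand gene TGFB1 (chr19:41301587-41353922, minus strand, hg38) encodes the most widely expressed of the TGF-beta ligands. Its promoter is shown because TGFB1 was the only member whose fall with the combination passed the test. The 250 bases upstream of the annotated start (chr19:41353923-41354172, minus strand, RefSeq on GRCh38.p14) read as follows, with GC boxes in capitals (GGGCGG on either strand).
TGFB1 promoter: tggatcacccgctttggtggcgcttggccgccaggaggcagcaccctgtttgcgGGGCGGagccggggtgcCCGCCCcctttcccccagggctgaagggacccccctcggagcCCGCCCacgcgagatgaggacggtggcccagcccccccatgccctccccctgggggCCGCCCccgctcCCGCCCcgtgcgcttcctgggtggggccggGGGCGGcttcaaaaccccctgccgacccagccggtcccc
This stretch held 6 GC boxes, and 42.6% of the 35116 promoter windows of the same length in the RefSeq set held at least 1. Such matches describe the letters only.

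In Hep3B, TGFB1 stood at 967 scaled reads in untreated cells, 1308 with AZD8055, 553 with compound #57 and 850.3 with the combination. The same 4 conditions gave 805, 939, 344 and 505 in MHCC97H. In Huh7 they gave 265, 369, 170.3 and 199. The order of treatments was thus the same in every line, with AZD8055 highest, then untreated cells, then the combination, and compound #57 lowest. With compound #57, the log2-fold change was -0.80 (95% interval -0.94 to -0.67) in Hep3B, -0.63 (95% interval -0.87 to -0.40) in Huh7 and -1.23 (95% interval -1.40 to -1.06) in MHCC97H. With AZD8055 it was 0.43 in Hep3B, 0.48 in Huh7 and 0.22 in MHCC97H. The combination gave -0.19 in Hep3B, -0.41 in Huh7 and -0.67 in MHCC97H, all with intervals below 0. When the lines were tested together, TGFB1 fell with the combination (-0.42 ± 0.135 (SE), adjusted p = 0.0345, limma). Neither single drug passed the threshold, compound #57 with -0.89 ± 0.135 (SE), adjusted p = 0.0884, and AZD8055 with 0.38 ± 0.135 (SE), adjusted p = 0.112 (limma). TGFB1 overlaps 5 annotated genes, among them TMEM91 on the other strand and a gene without a symbol on its own strand. Whether reads were counted by strand is not given in the sources used here.

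TGFB2 (chr1:218345336-218444619, plus strand) encodes a ligand that needs the co-receptor betaglycan to bind TGFBR2 efficiently. Its promoter is shown because its changes spread most between lines. The 250 upstream bases (chr1:218345086-218345335, plus strand, RefSeq on GRCh38.p14) held, in capitals, a cyclic AMP response element core (TGACGT, here on the other strand), a CAGA element (CAGACA) and an E-box (CACGTG), the last 2 overlapping.
TGFB2 promoter: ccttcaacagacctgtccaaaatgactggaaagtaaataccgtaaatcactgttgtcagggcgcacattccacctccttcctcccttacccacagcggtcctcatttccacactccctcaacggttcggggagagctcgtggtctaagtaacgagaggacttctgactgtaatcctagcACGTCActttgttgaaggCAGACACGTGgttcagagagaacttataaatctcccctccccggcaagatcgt
Of all windows of this length, 7.10% held the core, 13.6% the CAGA element and 6.34% the E-box on either strand. It held no GC box.

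TGFB2 in Huh7 stood at 157 scaled reads in untreated cells, 1153 with AZD8055, 223 with compound #57 and 1009 with the combination. In MHCC97H the 4 values were 1401, 2551, 1745 and 4364, in the same order. Hep3B had 336, 398, 61.4 and 467, so that the library with compound #57 was the lowest of all 12, with 96 reads. Huh7 libraries with AZD8055 were far above those without it, whereas in Hep3B the library with compound #57 alone stood apart from the other 3. AZD8055 against untreated cells gave 2.87 (95% interval 2.68 to 3.07) in Huh7, 0.86 (95% interval 0.78 to 0.95) in MHCC97H and 0.25 (95% interval 0.05 to 0.45) in Hep3B. Compound #57 gave -2.43 (95% interval -2.79 to -2.12) in Hep3B, 0.50 in Huh7 and 0.32 in MHCC97H. With the combination, TGFB2 rose across the lines (1.60 ± 0.527 (SE), adjusted p = 0.0401, limma), with changes of 0.48 in Hep3B, 2.67 in Huh7 and 1.64 in MHCC97H. AZD8055 alone (1.33 ± 0.527 (SE), adjusted p = 0.142) and compound #57 alone (-0.54 ± 0.527 (SE), adjusted p = 0.573) did not pass (limma). Without the Hep3B libraries, the estimate for compound #57 was 0.41, of the opposite sign. TGFB2 also overlaps TGFB2-AS1 on the other strand and TGFB2-OT1 on its own strand.

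TGFBR2 (chr3:30606601-30694142, plus strand) encodes the type II receptor, the kinase that binds ligand first. Its promoter is shown because its values across the libraries followed those of TGFB1. The 250 upstream bases (chr3:30606351-30606600, plus strand, RefSeq on GRCh38.p14) held 2 GC boxes, in capitals.
TGFBR2 promoter: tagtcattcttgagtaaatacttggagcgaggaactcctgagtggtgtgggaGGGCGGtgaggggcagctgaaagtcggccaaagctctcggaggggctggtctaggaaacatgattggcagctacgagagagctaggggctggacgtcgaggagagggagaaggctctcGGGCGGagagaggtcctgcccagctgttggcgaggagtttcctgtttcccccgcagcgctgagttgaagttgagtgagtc
In MHCC97H, TGFBR2 stood at 2773 scaled reads in untreated cells, 5216 with AZD8055, 2114 with compound #57 and 2612 with the combination. The values were 2655, 3553, 1613 and 2237 in Huh7. Hep3B gave 1259.9, 1619, 923 and 1219. AZD8055 was the highest and compound #57 the lowest in each line, with the combination below untreated cells. AZD8055 gave log2-fold changes of 0.36 in Hep3B, 0.42 in Huh7 and 0.91 in MHCC97H, and compound #57 gave -0.45 in Hep3B, -0.72 in Huh7 and -0.39 in MHCC97H. Against untreated cells, neither AZD8055 (0.56 ± 0.133 (SE), adjusted p = 0.0518), compound #57 (-0.52 ± 0.133 (SE), adjusted p = 0.103) nor the combination (-0.13 ± 0.133 (SE), adjusted p = 0.472) passed the threshold (limma). The 95% interval of the combination's change was -0.42 to 0.17. In the MHCC97H library with the combination, TGFBR2 differed from untreated cells by -0.09 (95% interval -0.16 to -0.02) and by -0.997 (95% interval -1.06 to -0.94) against AZD8055 alone.

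TGFBR1 (chr9:99104038-99154192, plus strand) encodes the type I receptor, which passes the signal to SMAD2 and SMAD3. Its range was 292 to 563 scaled reads in Hep3B, 441 to 697 in MHCC97H and 1203 to 1423 in Huh7, so that Huh7 lay above both other lines under every treatment. Every treatment gave a higher value than untreated cells in every line. The combination gave 0.95 in Hep3B, 0.16 in Huh7 and 0.66 in MHCC97H, and TGFBR1 rose with it (0.59 ± 0.145 (SE), adjusted p = 0.0136, limma). AZD8055 (0.32 ± 0.145 (SE), adjusted p = 0.19) and compound #57 (0.33 ± 0.145 (SE), adjusted p = 0.227) were of like size and did not pass (limma). Their difference was -0.01 with a 95% interval of -0.33 to 0.31, in a comparison chosen after the values were seen. Levels of both receptors can be compared per kilobase of the MANE Select transcript. In untreated cells, TGFBR2 stood at 278 scaled reads per kilobase in Hep3B, 612 in MHCC97H and 586 in Huh7, above TGFBR1 with 44.9, 68.0 and 185. Between the ligands, on the same scale, TGFB1 was above TGFB2 in untreated cells of all 3 lines (348 against 57.2 in Hep3B, 289.7 against 239 in MHCC97H, 95.3 against 26.8 in Huh7). In MHCC97H this rested on the division by length, as scaled reads were 805 for TGFB1 and 1401 for TGFB2. Which transcripts the cells used was not measured. With the combination the order per kilobase was turned in MHCC97H (181 against 744) and Huh7 (71.5 against 172) but not in Hep3B (306 against 79.6).

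SMAD3 (chr15:67063763-67195173, plus strand) encodes a receptor-regulated SMAD that binds DNA directly. Its promoter is shown because SMAD3 was 1 of the 2 members whose rise with AZD8055 alone passed the test. The 250 bases upstream of the MANE Select start (chr15:67065352-67065601, plus strand, RefSeq on GRCh38.p14) held 4 GC boxes and 1 E-box, in capitals.
SMAD3 promoter: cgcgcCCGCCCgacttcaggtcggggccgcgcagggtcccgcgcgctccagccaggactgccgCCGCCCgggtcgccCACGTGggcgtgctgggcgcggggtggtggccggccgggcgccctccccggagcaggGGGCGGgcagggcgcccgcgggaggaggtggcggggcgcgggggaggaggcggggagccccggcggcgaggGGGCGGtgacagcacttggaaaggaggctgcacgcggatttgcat
SMAD3 stood at 531 scaled reads in untreated cells, 1166 with AZD8055, 715 with compound #57 and 1297 with the combination in Hep3B. Values were 3353, 5265, 2923 and 5102 in MHCC97H. Those of Huh7 were 745, 1512, 872 and 1472. The libraries with AZD8055, alone or combined, lay above both libraries without it in each line. AZD8055 gave 1.13 in Hep3B, 1.02 in Huh7 and 0.65 in MHCC97H, and SMAD3 rose with it (0.94 ± 0.134 (SE), adjusted p = 0.0268, limma). With the combination it rose by nearly the same size (0.96 ± 0.134 (SE), adjusted p = 0.00264, limma), and it was also higher with the combination than with compound #57 alone (0.81 ± 0.134 (SE), adjusted p = 0.0247, limma). Compound #57 alone gave 0.43 in Hep3B, 0.23 in Huh7 and -0.20 in MHCC97H and did not pass (0.15 ± 0.134 (SE), adjusted p = 0.528, limma). The combination differed from AZD8055 alone by 0.02, with a 95% interval of -0.28 to 0.32.

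SMAD2 (chr18:47808957-47931146, minus strand), the other SMAD phosphorylated by TGFBR1, ranged from 456 to 622 scaled reads in Hep3B, from 698 to 908 in MHCC97H and from 790.4 to 962 in Huh7. AZD8055 gave -0.20 in Hep3B, 0.07 in Huh7 and 0.11 in MHCC97H. No comparison between treatments passed, and the estimates over the lines lay at -0.01 for AZD8055 (95% interval -0.32 to 0.30), 0.15 for compound #57 (-0.16 to 0.45) and 0.15 for the combination (-0.15 to 0.46). SMAD4 (chr18:51028528-51085045, plus strand), the partner shared by all receptor-regulated SMADs, was lowest in untreated cells and highest with the combination in each line. Its range was 356 to 675 in Hep3B, 428 to 564 in MHCC97H and 1057 to 1586 in Huh7. SMAD4 rose with the combination (0.64 ± 0.156 (SE), adjusted p = 0.0134, limma), by 0.92 in Hep3B, 0.58 in Huh7 and 0.40 in MHCC97H. Compound #57 alone gave 0.85 in Hep3B, 0.49 in Huh7 and 0.24 in MHCC97H and did not pass (0.53 ± 0.156 (SE), adjusted p = 0.122, limma). In Hep3B, SMAD4 with AZD8055 differed from untreated cells by 0.11 (95% interval -0.09 to 0.31), within counting error.

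SMAD7 (chr18:48919853-48950965, minus strand), the inhibitory SMAD, is a direct SMAD target known for a palindromic SMAD-binding element. The 250 bases upstream of its annotated start (chr18:48950966-48951215, minus strand, RefSeq on GRCh38.p14) are shown because SMAD7 had the largest estimate of the 8 genes with the combination over the 3 lines, and they held none of the motifs searched (the E-box, the GC box, the TGACGT core, the CAGA element, the AP-1 site TGACTCA and the SMAD palindrome GTCTAGAC, all on both strands).
SMAD7 promoter: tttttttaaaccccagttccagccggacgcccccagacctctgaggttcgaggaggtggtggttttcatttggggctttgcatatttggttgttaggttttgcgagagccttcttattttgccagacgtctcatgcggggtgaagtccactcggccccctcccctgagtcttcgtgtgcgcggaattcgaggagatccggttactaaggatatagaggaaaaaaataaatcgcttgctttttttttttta
The palindrome GTCTAGAC was searched in the 3000 bases upstream of this start in hg38, and 1 match was found, 1253 bases upstream. It is given in capitals within 100 bases (chr18:48952172-48952271, minus strand, hg38), because these letters are known as a SMAD-binding palindrome and SMAD7 rose in these data.
SMAD7 palindrome: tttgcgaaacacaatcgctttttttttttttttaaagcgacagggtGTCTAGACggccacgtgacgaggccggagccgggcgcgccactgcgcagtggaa
Of the 35116 promoter windows, each of 250 bases, 0.182% held this palindrome. That share is no rate for a search of 3000 bases, and the match lies outside the 250-base window shown above. SMAD7 has 3 RefSeq windows, of which only the one at the MANE Select start is described here. No binding was measured here, and the match is a description.

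SMAD7 in Hep3B stood at 157 scaled reads in untreated cells, 353 with AZD8055, 370.5 with compound #57 and 754 with the combination. In Huh7 the values were 450.3, 1256, 763 and 1423. MHCC97H had 250.3, 392, 316 and 521, the smallest span of the lines. In each line, untreated cells were lowest and the combination highest, with each single drug in between. The combination gave 2.26 (95% interval 2.03 to 2.51) in Hep3B, 1.05 (95% interval 0.86 to 1.25) in MHCC97H and 1.66 (95% interval 1.53 to 1.79) in Huh7. AZD8055 gave 1.17 in Hep3B, 1.48 in Huh7 and 0.65 in MHCC97H, and compound #57 1.24 in Hep3B, 0.76 in Huh7 and 0.33 in MHCC97H. SMAD7 rose with AZD8055 (1.10 ± 0.219 (SE), adjusted p = 0.039, limma) and with the combination (1.66 ± 0.219 (SE), adjusted p = 0.0023, limma), which was higher than with either single drug in every line. The difference from AZD8055 alone (0.56 ± 0.219 (SE), adjusted p = 0.293) and from compound #57 alone (0.88 ± 0.219 (SE), adjusted p = 0.0541) did not pass (limma). Compound #57 against untreated cells did not pass either (0.78 ± 0.219 (SE), adjusted p = 0.115, limma).

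**Figure D2:**
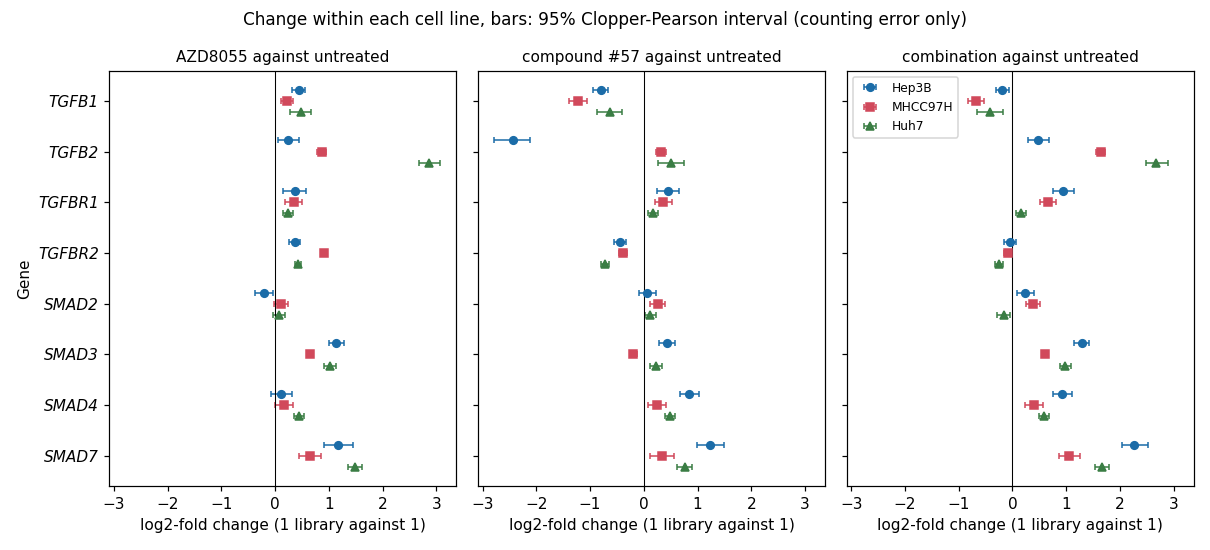
log2-fold change of each gene (horizontal axis) within each cell line, 1 treated library against 1 untreated library, for AZD8055, compound #57 and the combination; symbols stand for cell lines and bars are 95% Clopper-Pearson intervals covering counting error only. TGFB2 shows the widest spread between lines, from -2.43 in Hep3B with compound #57 to 2.87 in Huh7 with AZD8055.

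Within single lines, the changes of the 8 genes were read against those of the whole table, of which a member count near the background is no result about the genes. With AZD8055, 2 of 8 were at least 2-fold higher in Hep3B (SMAD3 and SMAD7), where 4.63% of all genes changed at least 2-fold in either direction. There were 3 in Huh7 (TGFB2, SMAD3 and SMAD7; 8.41% of all genes) and 0 in MHCC97H (10.2%). With compound #57, TGFB2 was at least 2-fold lower and SMAD7 higher in Hep3B (12.7% of all genes), TGFB1 was lower in MHCC97H (3.96%), and none was past 2-fold in Huh7 (5.95%). With the combination, 2 of 8 were higher in Hep3B (SMAD3 and SMAD7; 17.6%), in MHCC97H (TGFB2 and SMAD7; 16.1%) and in Huh7 (TGFB2 and SMAD7; 18.5%). In MHCC97H, the median of all genes in the library was 0.11 higher with compound #57 and 0.10 higher with the combination than in untreated cells, on the log2 scale. Relative to this shift, the changes in MHCC97H with these drugs are lower by that amount. No change against untreated cells within a line turned its sign when each library was centred on its median.

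To test the mean change over the 3 lines, limma was fitted to all 12 libraries, with terms for treatment and for line. Genes with an adjusted p under 0.05 were called. A call does not require that all lines moved alike. With AZD8055, 2 of the 8 genes were called (SMAD3 and SMAD7, both higher), against 2.96% of all genes. The median change of the 8 was 0.47, beside 0.031 for all genes. With the combination, 6 of 8 were called, 5 higher and 1 lower, against 36.0% of all genes, with a median of 0.61 beside 0.086. With compound #57, 0 of 8 were called by limma, against 0.00866% of all genes (1 gene). An unadjusted p under 0.05 (limma) was found for 5 of 8, beside 21.7% of all genes. Voom on the reads called 1, TGFB1, with no share of all genes given here. Of all genes called with AZD8055, 74.6% were higher, and 54.1% when libraries were centred on their medians. For the combination these shares were 58.0% and 47.2%. All comparisons with untreated cells share the same 3 untreated libraries.

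The calls changed when single lines were left out. Such a fit also has fewer libraries and fewer residual degrees of freedom. A lost call alone therefore does not show that a change rested on 1 line. With AZD8055, 0 of the 8 genes were called without the Hep3B libraries, 1 without MHCC97H (SMAD3) and 0 without Huh7. With the combination, 3 were called without Hep3B (SMAD7, SMAD3 and TGFB2), 3 without MHCC97H (SMAD7, SMAD3 and SMAD4) and 0 without Huh7. Without Huh7, the changes of SMAD7 and SMAD3 with the combination were 1.66 and 0.95, with adjusted p = 0.0617 and 0.0721 (limma). The fit to all 12 libraries gave 1.66 and 0.96. A fit to the 6 untreated and combination libraries alone called 2 of the 8, and a fit without the cell line term called 0. The shares of all genes called in these fits are not given here, so these counts have no background.

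**Figure D3:**
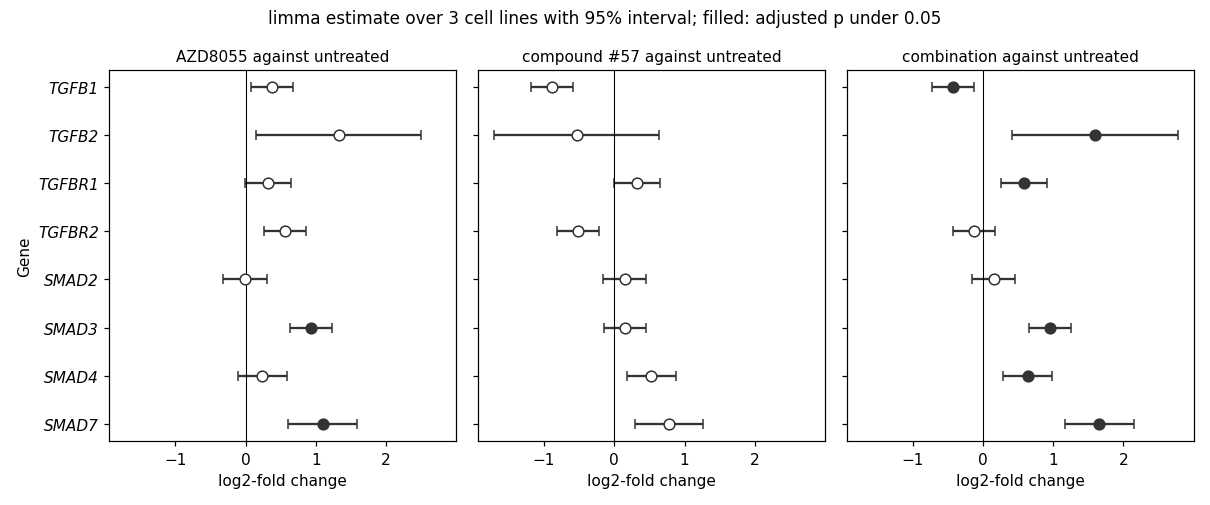
limma estimate of the log2-fold change over the 3 cell lines (horizontal axis) for each of the 8 genes and each comparison with untreated cells; bars are 95% intervals and filled points have an adjusted p under 0.05. Filled points are SMAD3 and SMAD7 for AZD8055, none for compound #57, and all but TGFBR2 and SMAD2 for the combination.

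Combination and single drugs were also compared. Against AZD8055 alone, limma called 0 of 8 and 0% of all genes, with 4 of the 8 and 1673 of all genes at an unadjusted p under 0.05. TGFB1 (-0.80 ± 0.135 (SE), adjusted p = 0.145) and TGFBR2 (-0.69 ± 0.133 (SE), adjusted p = 0.147) were lower with the combination than with AZD8055 in 3 of 3 lines without passing (limma). Against compound #57 alone, 1 of 8 was called (SMAD3) against 4.18% of all genes, and TGFB2 (2.13 ± 0.527 (SE), adjusted p = 0.0533) and SMAD7 just missed the threshold (limma). Voom called 2 of 8 in this comparison, with no share of all genes given here. The test of whether the combination differed from the sum of both single changes called 0 of 8 and 0% of all genes, with 0 of the 8 and 178 of all genes at an unadjusted p under 0.05 (limma). Its estimate was -0.22 for SMAD7 (95% interval -0.91 to 0.47), 0.81 for TGFB2 (-0.86 to 2.47) and 0.09 for TGFB1 (-0.34 to 0.51). A comparison of AZD8055 with compound #57, chosen after the values were seen, called 3 of the 8 genes as higher with AZD8055, against 3.51% of all genes. They were TGFB1 (1.27 ± 0.135 (SE), adjusted p = 0.00844), TGFBR2 (1.08 ± 0.133 (SE), adjusted p = 0.00972) and SMAD3 (0.78 ± 0.134 (SE), adjusted p = 0.022, limma). None of the 3 was called without Hep3B or without Huh7.

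Levels also differed between lines, with all 4 treatments of a line taken as its libraries. These p-values describe cultures that are 1 line each and, for MHCC97H, another time. MHCC97H and Hep3B differed in 6 of 8 genes (67.8% of all genes), 5 of them higher in MHCC97H. The differences were 3.19 ± 0.457 (SE) for TGFB2, 2.21 ± 0.116 (SE) for SMAD3 and 1.28 ± 0.115 (SE) for TGFBR2, while TGFB1 was lower in MHCC97H (-0.54). SMAD4 and SMAD7 did not differ beyond their spread between these lines, with 95% intervals of -0.31 to 0.29 and -0.41 to 0.44. MHCC97H and Huh7 differed in 7 of 8 (70.2% of all genes), with TGFB2 (2.34), SMAD3 (1.88), TGFB1 (1.32) and TGFBR2 (0.31) higher in MHCC97H and SMAD4 (-1.48), SMAD7 (-1.31) and TGFBR1 (-1.24) lower. SMAD2 did not pass (95% interval -0.43 to 0.10). Hep3B and Huh7 differed in 7 of 8 (55.1% of all genes), and only TGFB1 was higher in Hep3B (1.87 ± 0.116 (SE), adjusted p = 1.43e-06, limma). The 6 lower in Hep3B included TGFBR1 (-1.74), SMAD4 (-1.48) and SMAD7 (-1.33), and TGFB2 did not pass (95% interval -1.87 to 0.17). From high to low, the order of lines was thus MHCC97H, Huh7, Hep3B for SMAD3 and TGFBR2, and Hep3B, MHCC97H, Huh7 for TGFB1. For TGFBR1 it was Huh7, MHCC97H, Hep3B.

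Likeness of pattern was described by Pearson's r over the 12 libraries after the mean of each line was subtracted, with no test, since the points share libraries and conditions. Among the members, r was 0.90 for TGFB1 with TGFBR2, 0.87 for SMAD3 with SMAD7, 0.87 for TGFBR1 with SMAD7 and 0.81 for SMAD4 with SMAD7. TGFB1 with SMAD7 gave -0.08 and TGFB1 with SMAD4 -0.52. Of the whole table, the genes most like TGFB1 were NR1D1 (0.92), TSPAN4 (0.92) and EPHA2 (0.90), and those most like TGFBR2 were LRP5 (0.98), TSPAN4 (0.94) and SKI (0.92). TSPAN4, a tetraspanin, was thus on both lists, and SKI encodes a co-repressor of SMADs. The closest to TGFB2 were PELI2 (0.96), AVEN (0.94) and EIF3H (0.94). For SMAD3 they were TCTN1 (0.98), CDC14A (0.98) and FAM107B (0.97), for SMAD7 PHF2 (0.99), SMTN (0.99) and LINC00630 (0.99) and for SMAD4 MYL6 (0.99), SHROOM3 (0.99) and MAP4 (0.98). For TGFBR1 they were FAM73A (0.97), WAC-AS1 (0.96) and CDK14 (0.96), and for SMAD2 STRN (0.96), RFK (0.95) and RC3H1 (0.91).

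The other genes of the pathway were taken from lists written from general knowledge, but with earlier results of these data known. The counts over these lists are therefore descriptions and no independent evidence about the pathway. Of 99 listed genes, 76 were in the table. With AZD8055, limma called 7 of the 76, all higher, and with the combination 34, of which 27 were higher and 7 lower. These are 9.21% and 44.7%, beside 2.96% and 36.0% of all genes. With compound #57 alone limma called 0 of 76. At an unadjusted p under 0.05 were 18 of the 76, beside 2501 of all 11548 genes (21.7%). The combination against AZD8055 gave 0, with 19 of the 76 at an unadjusted p under 0.05, beside 14.5% of all genes. The combination against compound #57 gave 6, with 5 higher and 1 lower (7.89%, beside 4.18% of all genes).

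Of 11 other ligands and latency genes, 4 rose and 2 fell with the combination. BMP2, a ligand that signals through other SMADs, rose by 2.50, and the latent TGF-beta binding proteins LTBP2 and LTBP4, which tether latent ligand to the matrix, rose by 1.54 and 1.49. In Huh7 reads were few, with 2 in untreated cells and 6 with the combination for LTBP2, and 3 and 9 for LTBP4. BMP8B rose by 2.18 in the fit, from higher values in Hep3B (2.82) and Huh7 (3.72), and had 0 reads in both MHCC97H libraries of that comparison. The inhibin subunit INHBB and GDF11 fell by 0.80 and 0.49. Of 7 genes that activate latent ligand, the integrin subunit ITGAV rose with AZD8055 (1.11 ± 0.218 (SE), adjusted p = 0.039) and ITGB8, which pairs with it, with the combination (1.82 ± 0.480 (SE), adjusted p = 0.0174, limma). In Hep3B, ITGB8 had only 7 reads in untreated cells and 18 with the combination. THBS1, encoding thrombospondin, had 1.22 with AZD8055, -0.41 with compound #57 and 0.89 with the combination, none of them called. GDF15, a stress-induced ligand of the family, had 1.09, -0.44 and 0.49 in the same order, none called. The integrin subunits ITGB1 and ITGB5 gave 0.54 and 0.48 with AZD8055 and -0.32 and -0.31 with compound #57, again with no call.

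Among 8 other receptors, 3 rose and 1 fell with the combination. The BMP and activin receptors BMPR2, ACVR2B and ACVR1 rose by 1.07, 1.01 and 0.996. TGFBR3, the betaglycan co-receptor that presents TGFB2 to TGFBR2, fell (-1.67 ± 0.357 (SE), adjusted p = 0.00834, limma) and was lower in 3 of 3 lines with each drug. Of the other 4 SMADs, SMAD9 rose with the combination (1.36 ± 0.329 (SE), adjusted p = 0.0127, limma), with only 4 reads in untreated cells and 19 with the combination in MHCC97H. SMAD6, the second inhibitory SMAD, had 0.86 ± 0.352 (SE), adjusted p = 0.0822 and was not called (limma), nor was SMAD1 (0.33). The receptors ACVR2A (-0.07) and BMPR1B (0.54) did not pass with the combination.

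Of 23 inhibitors and regulators other than SMAD7, 9 rose and 1 fell with the combination. FSTL3, which binds activins outside the cell, rose by 3.13, the pseudoreceptor BAMBI by 1.18, and the co-repressors SKIL and TGIF1 by 0.89 and 0.80. SKIL and TGIF1 also rose with AZD8055 alone, by 0.68 and 0.60. The ubiquitin ligases SMURF2 and NEDD4L rose by 0.77 and 0.68, the phosphatase PPM1A by 0.62, and USP11 by 0.59. DAB2 was called at 0.85, with a value of -0.14 in Hep3B against 1.25 in MHCC97H and 1.46 in Huh7, so that its direction was not shared by the 3 lines. STRAP, which holds SMAD7 at the receptor, fell (-0.53). The activin antagonist FST gave -1.11 with the combination and was not called. It had 0 or 1 read in each MHCC97H library. The change there with the combination, -0.82 from 1 read in untreated cells to 0, still enters the estimate.

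Of 23 genes known as targets of the pathway, 3 rose with AZD8055, and 9 rose and 3 fell with the combination. TAGLN, encoding the actin-binding transgelin, rose by 2.43 with AZD8055 and 2.84 with the combination, JUNB by 2.13 and 1.80, and the fibronectin gene FN1 by 0.90 and 0.65. With the combination, the mesenchymal genes CDH2 (2.17), COL1A1 (2.15) and VIM (1.51) rose, as did NEDD9 (2.16), TGFBI (1.18) and ID2 (0.83). In MHCC97H, COL1A1 had only 13 reads in untreated cells and 29 with the combination. SNAI1, a transcription factor of epithelial-to-mesenchymal transition, fell (-1.34), as did HMGA2 (-1.67) and SPHK1 (-1.33). Against compound #57 alone, TAGLN (2.12), JUNB (1.90), TGFBI (0.95) and TGIF1 (0.59) were among the genes higher with the combination, and SPHK1 (-0.65) was lower. Without the Huh7 libraries, 0 of the 76 genes were called with the combination, and without Hep3B 21, with no share of all genes given here for these fits. The adjusted p of every call named here is from limma.

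**Figure D4:**
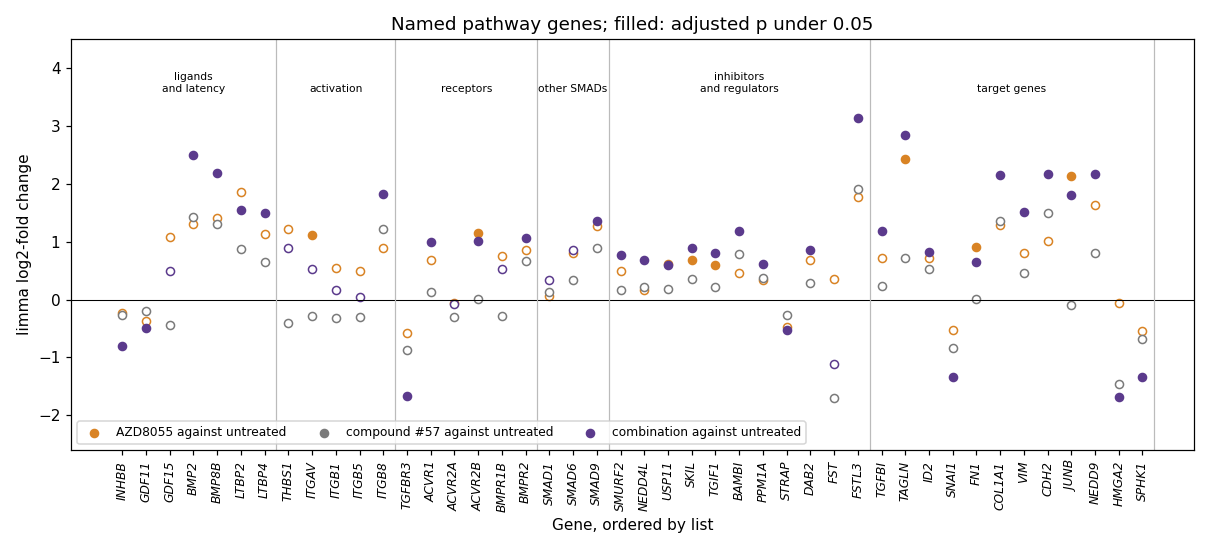
limma log2-fold change over the 3 cell lines (vertical axis) of the genes named from the pathway lists (horizontal axis, grouped by list) for AZD8055, compound #57 and the combination, each against untreated cells; filled points have an adjusted p under 0.05. No point for compound #57 is filled, and of the genes plotted FST has the lowest point of that drug at -1.70. FST had 0 or 1 read in each MHCC97H library.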

How the data were processed

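Libraries were made with a TruSeq kit that the labels call stranded, and the authors aligned reads to hg38. The aligner, the counting and the normalization are not given in the sources used here. The deposited file holds 1 log2 value per gene and library for 11548 genes. From the values, each is log2(x + 1) + 0.001, where x is the gene's reads after scaling a library to 10000000 reads. Removing this offset gave whole reads for 100% of values (tolerance 1e-06), and totals of 10667343 to 15968317 reads.

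limma 3.58.1 in R 4.3.3 (lmFit, eBayes with trend) was fitted to the log2 values of all 12 libraries, with terms for treatment and line, leaving 6 residual degrees of freedom. P-values were adjusted over all genes by Benjamini-Hochberg and called under 0.05. The cell line pairs the libraries. With 1 library per condition no test was run within a line. P-values between treatments set the mean change against how unevenly the lines changed, pooled over all 12 libraries. Those between lines set the mean difference against its spread between the treatments of the same cultures. Calculations were tested on simulated data. Alternatives were adding 10 and not 1, keeping 75% of genes by mean level, libraries centred on their medians, no cell line term, only the libraries compared, voom on the whole reads, and each line or, between lines, each treatment left out.

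Members and lists were chosen with earlier results of these data known. Named were all 8 members, pathway genes called in any of the 5 treatment comparisons, and in each list the 3 genes that changed alike in 3 lines and whose weakest change was largest. Some listed genes are not reported here by name, though counts and sums over the lists include them. For likeness, the 3 genes of highest r per member were named. Positions came from GENCODE release 44, and promoters from RefSeq (GRCh38.p14), where all 8 genes matched. Python 3.11.15 was used.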

Additional observations from a re-analysis of the deposited data

Results flagged for a closer look

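The change of TGFB2 with compound #57 stood apart between cell lines. It was lower than in untreated cells in Hep3B (-2.43 on the log2 scale, 96 against 358 reads) and higher in Huh7 (0.50, 303 against 251 reads) and in MHCC97H (0.32). Huh7 minus Hep3B was 2.94. It was picked out because the lines moved in opposite directions, and with 1 library per condition the difference was not tested.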

How the results depend on the processing

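Of 432 alternatives to the changes of single members over the lines, 367 kept direction and side of the threshold, 46 lost and 11 gained a call, and 8 turned in sign. The cause was not tested. Shares of all genes called under these alternatives are not given here, so the counts below have no background. Without the cell line as a block, 0 members were called in any comparison between treatments and 0 pathway genes. With only the libraries compared, 0 members and 0 pathway genes were called with AZD8055, 2 members with the combination, 3 members and 10 pathway genes for the combination against compound #57, and 0 members for AZD8055 against compound #57. Centring called 11 pathway genes with AZD8055. voom called 1 member with compound #57, and 2 members and 10 pathway genes for the combination against compound #57, where 10 added in place of 1 called 2 members and the 75% of genes 3. Leaving out a line gave 0 to 1 members and 0 to 5 pathway genes with AZD8055, 0 to 2 and 0 to 7 with compound #57, 0 to 3 and 0 to 35 with the combination, 0 to 1 and 0 to 10 for the combination against compound #57, and 0 to 3 members for AZD8055 against compound #57.

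Under centring, TGFBR1 in AZD8055 against compound #57 was 0.026 and SMAD3 in the combination against AZD8055 -0.016. Leaving out a line gave -1.06 to 0.41 for TGFB2 with compound #57. It gave -0.053 to 0.028 for TGFBR1 in AZD8055 against compound #57. SMAD2 ranged from -0.065 to 0.090 with AZD8055 and from -0.079 to 0.15 in the combination against compound #57, and SMAD3 from -0.042 to 0.057 in the combination against AZD8055. Calls between cell lines were within 1.5 times under every alternative. Within lines, 8 of 144 values against untreated cells moved beyond counting error, all under centring. Depth limits genes with few reads, such as TGFB2 in Hep3B with compound #57 (96 reads), and 1 library per condition limits every value.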
